A study of Mus with 2 samples.

Results

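Bone marrow cells that carried transcripts of the C-type lectin gene Cd209a together with MHC class II transcripts were examined in mouse hindlimb marrow profiled by droplet-based single-cell RNA sequencing. Each cell in such data is a barcode, and each captured transcript is counted once as a unique molecular identifier (UMI). Cells were chosen by their own counts: at least 1 UMI of Cd209a, at least 5 UMIs of H2-Aa, H2-Ab1 and H2-Eb1 together, no UMI of the B-cell gene Cd79a or the plasmacytoid dendritic cell gene Siglech, and fewer than 3 UMIs of C1qa, C1qb and C1qc together. This gave 87 member cells of 18089 that passed the quality filter, 43 in the library from ground mice and 44 in the library from running mice. There was 1 library per group, so no difference between the groups has a replicate check, no test was possible, and every interval given here is a 95% interval that covers counting error only. The labels call the groups ground and running and give no strain, age, sex, number of mice, or length or kind of running. Handling of the 2 libraries and the groups themselves cannot be told apart.

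Conventional dendritic cells take up antigen and present it to T cells on MHC class II molecules, and they develop from marrow precursors under the cytokine FLT3 ligand. The branch known as cDC2 carries SIRPα and lectins such as Clec10a and depends in part on the transcription factor Irf4. Cd209a, a mouse relative of the human adhesion receptor DC-SIGN, marks part of this branch, but it is also found on monocytes and on dendritic cells that arise from monocytes, which keep monocyte genes such as Ccr2. Ciita encodes the master activator of class II genes, and Cd74 the invariant chain that guards the class II groove until peptide is loaded.

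The counts that chose the members are given as a description. Member cells held a lowest, median and highest Cd209a count of 1, 7 and 21 UMIs in ground and of 1, 6 and 42 UMIs in running, 385 and 373 UMIs in all. The class II sum ran from 8 over a median of 204 to 396 UMIs in ground and from 5 over 130 to 460 UMIs in running. The 2 libraries overlapped over nearly the whole range of both counts. Just inside the rule were 4 ground and 7 running cells with a single Cd209a UMI, and 1 and 2 cells with a class II sum between 5 and 9. Just outside it, 37 ground and 29 running cells with Cd209a missed only the class II minimum. Of these, 1 in each library had a sum of 3 or 4, and 25 and 26 had none. Siglech removed a further 55 ground and 62 running cells with a Cd209a UMI. Members held 55.9% of all Cd209a UMIs of ground and 58.8% of those of running. Cd209a lies on chromosome 8 (3743395 to 3748984), Clec10a on chromosome 11 (70166623 to 70170836) and Ciita on chromosome 16 (10480014 to 10531064) in RefSeq annotation of GRCm38.p6.

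The depth of members was near that of classical monocytes, which held a median of 9439 UMIs in ground and 7928.5 in running. Members held a median of 9066 UMIs in ground (1690 to 49147) and 8323.5 in running (743 to 25741), with medians of 2590 and 2619.5 genes, and 471120 and 398231 UMIs in all. Doublet calling with Scrublet marked none of the ground members and 1 running member. The libraries shared 24 barcodes, none of them among members. The ground cell with 49147 UMIs carried 116 Elane, 230 Prtn3 and 164 Ly6c2 UMIs, genes of granulocyte and monocyte precursors, and it was not called a doublet. The median share of neutrophil transcripts was 0.417% in ground and 0.353% in running members, and the highest was 10.5% and 10.1%.

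Member cells were equally frequent in the 2 libraries as far as these counts can tell. They made up 0.483% of kept ground cells (0.350 to 0.650%) and 0.479% of kept running cells (0.348 to 0.643%), a ratio of running over ground of 0.993 (0.653 to 1.51). The interval leaves room for a difference in either direction. Cells that met the same rule but had no Cd209a UMI numbered 74 in ground and 124 in running, a ratio of shares of 1.63 (1.22 to 2.17). Taken as a share of members and these cells together, the ratio for members was 0.713.

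Markers outside the rule showed genes of antigen presentation in most members, and dendritic cell and monocyte genes side by side. Clec10a, a lectin for galactose-type sugars, was seen in 35 of 43 ground and 30 of 44 running members. In ground it had a lowest, median and highest count of 0, 3 and 22 UMIs per cell, and in running of 0, 1 and 13. Cd74 was seen in every member, with medians of 166 UMIs in ground (19 to 352) and 116 in running (1 to 291). Ciita was seen in 40 ground and 34 running members, with medians of 3 and 2 UMIs. T cells, which should lack these genes, had a Clec10a UMI in 0 of 244 ground cells, with an exact interval that reaches 1.5%, and in 0.893% of 336 running cells, and a Ciita UMI in 0% and 0.595%, at median depths of 5343.5 and 6150.5 UMIs. The shares in members lay far above those in T cells.

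**Figure D1:**
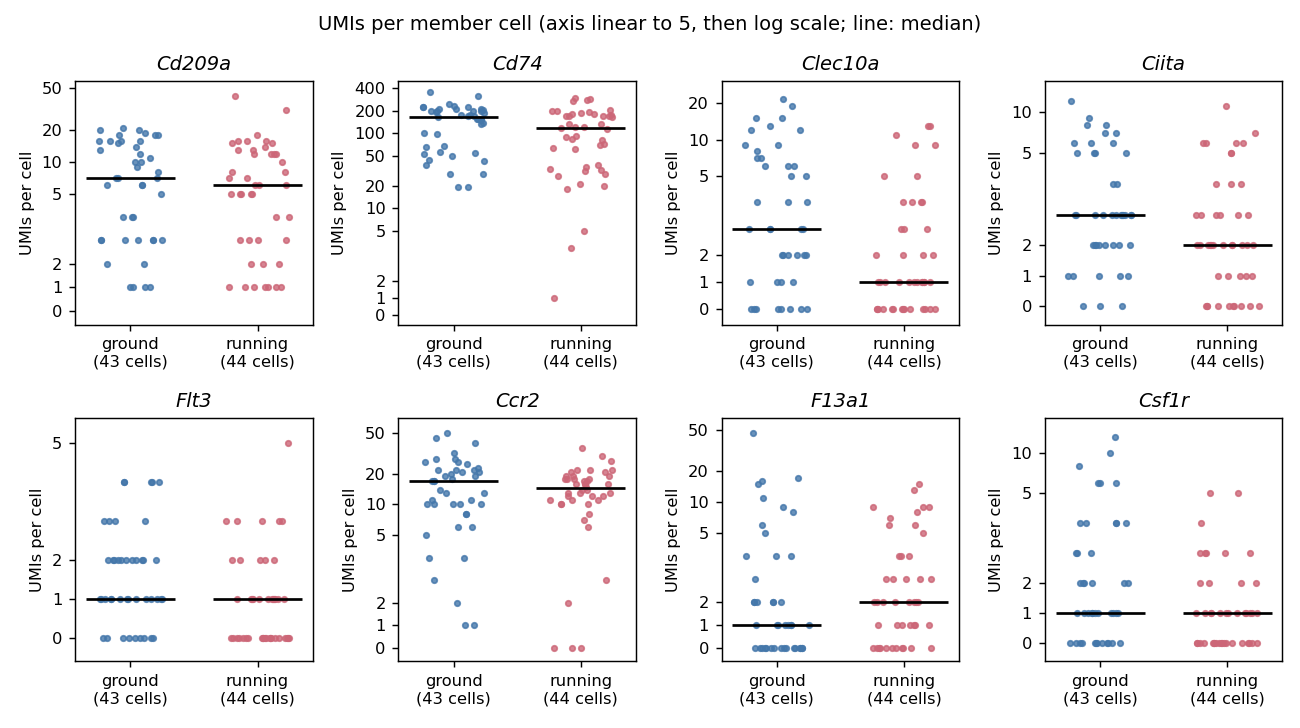
UMIs per member cell of 8 genes (y axis, linear to 5 UMIs and logarithmic above) in the ground (43 cells) and running (44 cells) library; each point is 1 cell and the line is the median. Cd209a and Cd74 overlap between libraries over most of their range, Clec10a has medians of 3 and 1 UMIs, and Ccr2 medians of 17 and 14.5.

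Dendritic cell genes were present but uneven. Flt3, the receptor for the cytokine that drives dendritic cell development, was seen in 34 of 43 ground members (79.1%, 64.0 to 90.0%) and 23 of 44 running members (52.3%, 36.7 to 67.5%). After each cell was thinned to 3000 UMIs, which left out 2 ground and 3 running cells, the shares were 43.9% and 36.6%. T cells had a Flt3 UMI in 0% and 0.298%. Itgax, encoding CD11c, was seen in 17 and 12 members, and Irf4 in 15 and 18. Sirpa levels were 212 CPM (summed UMIs scaled to a common total) for ground and 211 CPM for running. Zbtb46, a factor restricted to conventional dendritic cells among mature myeloid cells, was seen in 6 ground and 2 running members. The cDC1 receptor gene Xcr1 had no UMI in any member, although Batf3, a cDC1 factor, was seen in 17 and 18. The migratory dendritic cell genes Ccr7, Fscn1 and Ccl22 had no UMI in any member, and neither did the cDC2 genes Clec4a4 and Esam; a count of 0 over all members allows up to 3 UMIs in each library.

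Monocyte genes were present in the same cells. Ccr2, the chemokine receptor that brings monocytes out of the marrow, was seen in 43 of 43 ground and 41 of 44 running members, at 1526 and 1595 CPM. Classical monocytes, chosen by at least 3 Ly6c2 UMIs and 1 Ccr2 UMI with a class II sum below 5, had 1707 and 1576 CPM, and plasmacytoid dendritic cells 190 CPM in each library. Members were at the level of the monocytes, which the choice by Ccr2 favours, and Ccr2 is also a gene of precursors of conventional dendritic cells. Ms4a4c, a membrane protein gene of monocytes, stood at 382 and 615 CPM in members, 429 and 528 CPM in classical monocytes and 23.3 and 34.6 CPM in plasmacytoid dendritic cells. F13a1, encoding coagulation factor XIII subunit A, was seen in 27 and 33 members (62.8% and 75.0%), against 4.92% and 5.06% of T cells and 15.4% and 10.2% of neutrophils. At 359 and 344 CPM its level in members was below that of classical monocytes (1190 and 1159 CPM). Csf1r, the receptor for the monocyte growth factor M-CSF, was at 214 and 126 CPM in members and at 280 and 266 CPM in classical monocytes. Ly6c2 had UMIs in 26 and 28 members (60.5% and 63.6%), against 64.8% and 79.2% of T cells and 80.5% and 80.6% of neutrophils. T cells and neutrophils can express this gene themselves, so its background was not measured and the share over all members is not read. The defining monocyte genes Vcan and Cd14 were low, with 11 and 1 UMIs for Vcan and 8 and 3 for Cd14.

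Dendritic cell and monocyte genes were found together in part of the members. Flt3 and F13a1 were found together in 36 of 87 members, Flt3 alone in 21, F13a1 alone in 24 and neither in 6. Flt3 had a median of 1 UMI per member, so a cell without a UMI may still express it. These counts therefore cannot show whether the members hold separate kinds of cells. Flt3, Clec10a and Sirpa were seen in most members, and so were Ccr2, Ms4a4c and F13a1. Zbtb46 on the dendritic cell side and Vcan and Cd14 on the monocyte side were scarce. With markers of both kinds in most members, the label of conventional dendritic cells is not used for the whole set. The cells are called Cd209a-positive class II-positive cells or members here. Because the rule counts UMIs, a gene of the rule cannot be used to support any name.

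**Figure D2:**
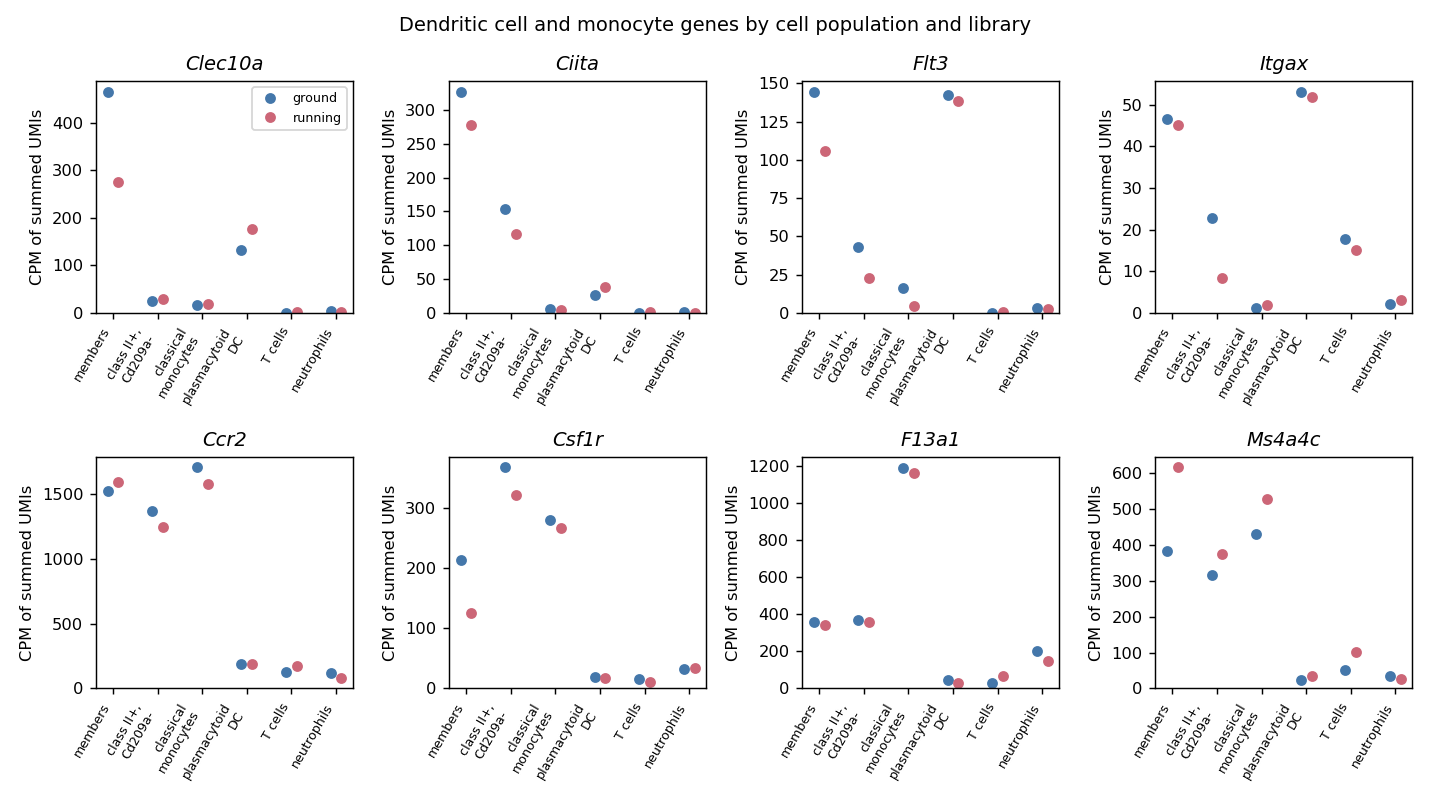
CPM of summed UMIs (y axis, linear from 0) of 8 genes in members and 5 other cell populations (x axis), with 1 point for each library. Clec10a and Ciita are highest in members, Flt3 and Itgax are near the level of plasmacytoid dendritic cells (DC), and Ccr2 and Ms4a4c are near that of classical monocytes.

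Members formed 3 subclusters when clustered on the 2000 most variable genes, and the genes that lead them describe how they vary. Subcluster 1 (37 cells) was led by Mgl2, H2-Eb1, H2-Oa, Ddr1, H2-Ab1, Hfe, H2-Aa, Cd300c2, Slamf9 and Clec10a. Mgl2 is a sister lectin of Clec10a, and H2-Oa encodes part of a modulator of class II peptide loading. Subcluster 2 (39 cells) was led by Apoe, Lyz2, Ifi204, Ccl4, Isg15, Irf7, Slfn1, Slfn5, Hpgd and AW112010, which include the lysozyme gene of phagocytes and several interferon-induced genes. Subcluster 3 (11 cells) was led by histone genes and by Top2a, Mki67, Stmn1, Pclaf, Nusap1 and Birc5, genes of dividing cells, and had a median of 17013 UMIs against 8482 and 8712 in subclusters 1 and 2. No cell type name is given to any of them.

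Several dendritic cell genes were highest in subcluster 1 and several monocyte genes in subclusters 2 and 3, with exceptions on both sides. Itgax stood at 95.8, 11.6 and 34.3 CPM in subclusters 1, 2 and 3, Flt3 at 181, 108 and 85.7 CPM, and Clec10a at 657, 317 and 120 CPM. F13a1 stood at 85.5, 562 and 377 CPM, Ly6c2 at 58.2, 754 and 1127 CPM, and Fn1, which encodes fibronectin, at 88.9, 332 and 338 CPM. Sirpa, on the cDC2 list, stood at 233, 276 and 90.0 CPM, Irf8 at 78.7, 210 and 296 CPM, and the monocyte gene Csf1r at 140, 282 and 55.7 CPM, so these genes did not follow that order. Ly6c2 in subcluster 3 was mostly the ground cell with 49147 UMIs. Apoe, a lipid carrier gene of macrophages and monocytes, was close to absent outside subcluster 2, at 3.42, 1575 and 17.1 CPM. Ccr2 was high in all 3 subclusters, at 1522, 1924 and 1062 CPM. Since the same counts made the subclusters, these values are a description and carry no test.

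The class II share of a cell varied over the same axis. The median share of H2-Aa, H2-Ab1 and H2-Eb1 among a cell's UMIs was 2.80% in subcluster 1 (0.917 to 4.59%), 1.08% in subcluster 2 (0.0522 to 3.50%) and 0.694% in subcluster 3 (0.0640 to 3.06%). In 17 of 87 members the share was below 0.5%. These were 7 ground and 10 running cells, 13 of them in subcluster 2, 4 in subcluster 3 and none in subcluster 1, with a median of 10084 UMIs, 3 Cd209a UMIs and 32 Cd74 UMIs. The median share of the 11 classical monocyte markers was 0.224% in subcluster 1, 0.451% in subcluster 2 and 0.306% in subcluster 3. The cell with the highest monocyte share (1.49%) lay in subcluster 1 and was a shallow ground cell of 2287 UMIs with 26 Ccr2 UMIs.

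**Figure D3:**
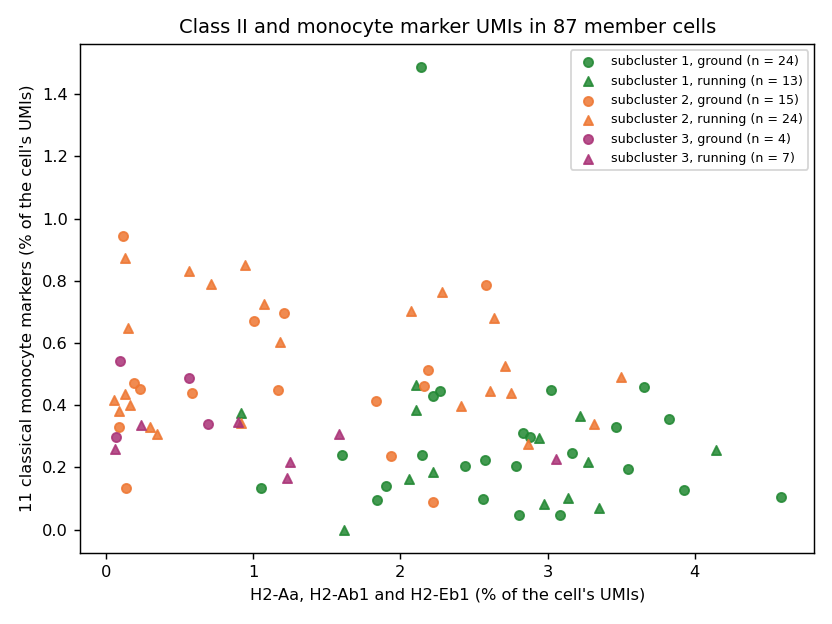
Share of each member's UMIs in H2-Aa, H2-Ab1 and H2-Eb1 (x axis, %) against its share in 11 classical monocyte markers (y axis, %); colour gives the subcluster, circles are ground and triangles running cells. Subcluster 1 lies at class II shares of 0.917% and above, while subclusters 2 and 3 reach down to 0.0522% and 0.0640%.

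Subcluster 1 took a larger part of the ground members and subcluster 2 a larger part of the running members. In the clustering described above, 24 of 43 ground (55.8%, 39.9 to 70.9%) and 13 of 44 running members (29.5%, 16.8 to 45.2%) lay in subcluster 1, a ratio of 0.529. Subcluster 2 held 15 and 24 members, and the cycling subcluster 4 and 7. Because interferon genes lead subcluster 2 and also differ between the libraries, members were clustered again without interferon genes and without genes that differed 2-fold. The class II-high subcluster then held 25 ground (58.1%) and 14 running members (31.8%), the second 14 and 23, and the cycling one 4 and 7. Of the cells in these 3 subclusters, 36, 36 and 11 were in the same subcluster as before. At a lower clustering resolution of 0.3, subclusters 1 and 2 were a single cluster of 39 ground and 37 running members. With 1 library per group, such a shift may belong to these libraries alone.

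Gene levels in members were compared between running and ground as log2 ratios of CPM from UMIs summed over the members of each library. The 2512 genes with at least 50 UMIs in all had a median log2 ratio of -0.02, and 47.8% of them were above 0. A log2 ratio of at least 1 (higher in running) was reached by 2.07% of these genes and one of at most -1 (lower in running) by 1.39%. These shares are the background against which the lists below are read. A list is described by its members with at least 50 UMIs in both libraries together. A scarce gene can pass this minimum through the library where it is higher.

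Genes induced by type I interferons, the cytokines of antiviral defence, were higher in running members. All 18 measured genes of the list of 36 were above 0, with a median log2 ratio of 0.95, and 9 were at or above 1. Scarce genes such as Rtp4 and Isg15 reached the minimum mainly through running, so their direction follows in part from it. Ifitm3 (0.29) and Ifi27l2a (0.69) held most of the list's UMIs and lay below the median. Without them the list kept 799 of 2853 UMIs in ground and 1507 of 3815 in running. Isg15, a ubiquitin-like protein of the interferon response, had 12 UMIs in 6 of 43 ground members and 55 UMIs in 18 of 44 running members, or 25.5 and 138 CPM (log2 ratio 2.44, 1.52 to 3.48). Most cells of both libraries had none, and the highest cell held 5 in ground and 19 in running. Rtp4, a chaperone of receptors that interferon induces, had 7 UMIs in 6 ground and 43 in 21 running members (2.86, 1.70 to 4.26). No cell held more than 6 of them. Ifi204, a DNA sensor of the Ifi200 family, stood at 76.4 and 254 CPM (1.73, 1.17 to 2.32), and Irf7, the factor that amplifies interferon production, at 78.5 and 176 CPM (1.16, 0.57 to 1.78). The smallest ratios of the list were those of Trim30a (0.18, -0.27 to 0.62) and of Ifitm3 (0.29, 0.19 to 0.40), a membrane protein that blocks virus entry.

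Single cells carried part of the interferon signal. Rsad2, which encodes the antiviral enzyme viperin, had 7 UMIs in ground and 94 in running (3.99, 2.89 to 5.34), but 79 of the 94 were in 1 running cell. That cell had 4.97% of its 8363 UMIs in interferon list genes, against 2.08% in the next running cell, and it alone held the 29 Cxcl10 UMIs of the members. Without it the list median was 0.74, with 13 of the 14 genes still at 50 UMIs above 0. Without the cycling subcluster it was 0.75, with 15 of 15 above 0. With each subcluster given the same weight in both libraries it was 0.70, with 17 of 18 above 0. Within subclusters 1, 2 and 3 the medians were 0.62 (10 of 18 above 0), 0.74 (16 of 18) and 1.55 (17 of 18). In subcluster 1 the higher levels were not seen in abundant genes: Ifi27l2a was at 1043 and 482 CPM (ground and running) there, Ifitm3 at 3007 and 2938 CPM, and Isg15 had 4 and 5 UMIs. The median share of a cell's UMIs in the whole list was 0.566% in ground and 0.490% in running in subcluster 1, 0.820% and 1.14% in subcluster 2, and 0.415% and 0.714% in subcluster 3. By this measure the list was lower in running in subcluster 1 and higher in the other two.

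The same genes were also higher in running in the populations nearest to the members. The 18 genes had a median of 0.48 in class II-positive cells without Cd209a (17 above 0), 0.52 in classical monocytes (18 above 0) and 0.35 in plasmacytoid dendritic cells (15 above 0). Members had the highest of these medians, but the 18 genes were chosen by their UMIs in members. A scarce gene could pass that minimum through running members, which raises the members' median and not the others. The order of the 4 medians is therefore not read. All 4 come from the same 2 libraries, and whether they differ was not tested. Isg15 had a UMI in 6.97% of T cells and 13.8% of neutrophils in ground and in 14.3% and 24.9% in running, against 14.0% and 40.9% of members. In ground the members' share was near that of neutrophils, which had a median depth of 6826 UMIs. T cells and neutrophils can express this gene themselves, so they do not measure free RNA alone, and the ground level of Isg15, with the ratio of 2.44 that rests on it, is not separated from free RNA. After thinning to 3000 UMIs the members' shares were 2.44% and 29.3%, those of neutrophils 6.51% and 12.8%, and those of T cells 4.25% (1.96 to 7.91%) and 5.10% (2.94 to 8.14%). At equal depth the share was thus higher in running neutrophils, while the intervals of T cells overlapped. The part of free RNA in the members' ratio was not tested.

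**Figure D4:**
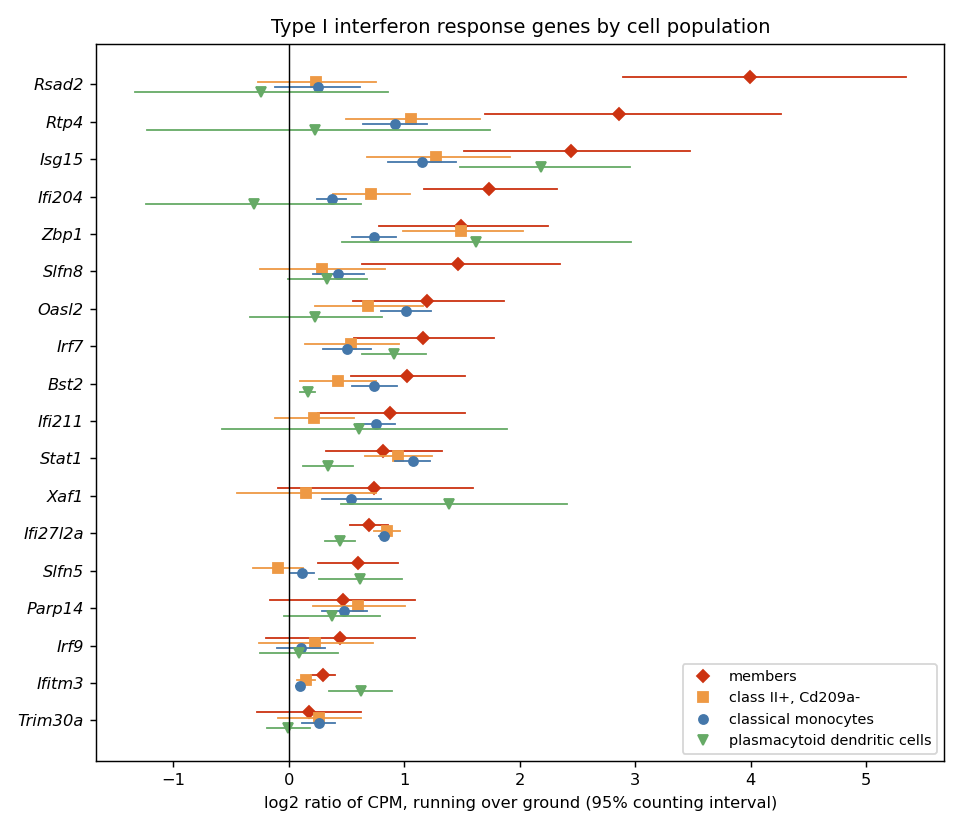
Log2 ratio of CPM, running over ground (x axis), of 18 type I interferon response genes (y axis) in 4 cell populations; bars are 95% counting intervals. All 18 points of members lie above 0, from 0.18 for Trim30a to 3.99 for Rsad2, and the points of classical monocytes lie above 0 as well.

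Immediate early genes, which cells switch on within minutes of a stimulus or of tissue handling, were also higher in running members. Of 15 measured genes 14 were above 0 and 4 at or above 1, with a median of 0.82. Fos, a subunit of the AP-1 factor, had 181 UMIs in 30 ground and 378 in 35 running members, or 384 and 949 CPM (1.30, 1.05 to 1.57). Atf3, a stress-induced factor, stood at 270 and 698 CPM (1.37, 1.06 to 1.69), Klf6 at 197 and 434 CPM (1.14, 0.77 to 1.52) and Klf2 at 127 and 264 CPM (1.05, 0.58 to 1.53). Nr4a1, an orphan nuclear receptor gene, had a ratio of -0.07 (-0.78 to 0.63). The same 15 genes had medians of 0.54 in class II-positive cells without Cd209a, 0.31 in classical monocytes and 0.05 in plasmacytoid dendritic cells. Within subclusters 1, 2 and 3 the medians were 0.15, 0.80 and 1.22. Without members that carried many UMIs of other cell types the median was 0.52.

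Class I antigen presentation leaned towards running and class II presentation slightly towards ground. In the class I list 11 of 14 measured genes were above 0, with a median of 0.39. The heavy chain gene H2-K1 stood at 783 and 1050 CPM (0.42, 0.22 to 0.63), B2m, its light chain, at 1250 and 1625 CPM (0.38, 0.21 to 0.54), and the immunoproteasome genes Psmb8 and Psme2 had ratios of 0.58 (0.30 to 0.85) and 0.73 (0.25 to 1.21). Calr, an endoplasmic chaperone, was lower in running (-0.32, -0.60 to -0.05). Of the 8 measured class II presentation genes outside the rule 1 was above 0, with a median of -0.19. Cd74 stood at 13355 and 12839 CPM (-0.06, -0.11 to -0.00), Ciita at 327 and 279 CPM (-0.23, -0.60 to 0.13), and the lysosomal reductase gene Ifi30 at 1269 and 987 CPM (-0.36, -0.55 to -0.18). Ctss, the protease that trims the invariant chain, was at 1042 and 811 CPM (-0.36, -0.57 to -0.16). With equal subcluster weights the class II median was -0.06 and Cd74 was at 0.11. Neither leaning was particular to members. The same class I genes had medians of 0.37 in class II-positive cells without Cd209a, 0.52 in classical monocytes and 0.17 in plasmacytoid dendritic cells. The same class II genes had medians of -0.37, -0.23 and 0.25 in these populations. Classical monocytes were chosen by a class II sum below 5, which limits their value. Plasmacytoid dendritic cells lay on the other side of 0. For class II the shared leaning is therefore read only from class II-positive cells without Cd209a.

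Mgl2 and Clec10a, lectin genes of the cDC2 list, were lower in running members. All 5 genes of this list with at least 50 UMIs had ratios below 0, with a median of -0.55. Irf4, the cDC2 factor, fell short of 50 UMIs and lay on the other side, with 18 UMIs in ground and 27 in running (0.83, -0.09 to 1.77) and with thinned shares of 17.1% and 31.7% of cells. Mgl2 had 65 UMIs in 12 ground members and 13 in 4 running members, or 138 and 32.6 CPM (-2.08, -3.06 to -1.21). Of the ground UMIs, 20 were in 1 cell and 16 in another, both in subcluster 1, which held more ground than running members. The interval does not cover this spread between cells. Over 15 alternatives the ratio of Mgl2 lay between -3.28 and -1.81. Clec10a had 219 and 110 UMIs, or 465 and 276 CPM (-0.75, -1.09 to -0.41), and with equal subcluster weights -0.40. Cd7 (-0.55, -1.25 to 0.12), Notch2 (-0.34, -1.12 to 0.41) and Sirpa (-0.01, -0.45 to 0.42) had intervals that include 0, as had Flt3 (-0.45, -1.04 to 0.12). In plasmacytoid dendritic cells, which also carry Clec10a, that gene was higher in running (0.40, 0.13 to 0.68). Among other lectins Mrc1, the mannose receptor gene, had a ratio of -0.71 (-1.41 to -0.04) and Clec12a of 0.41 (-0.09 to 0.91).

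Classical monocyte genes showed no common direction. Of 9 measured genes 6 were above 0, with a median of 0.06, against -0.02 for all genes. Ms4a4c was higher in running (0.69, 0.40 to 0.97), while Csf1r (-0.77, -1.29 to -0.27) was lower. Ly6c2 had 284 and 255 UMIs (0.09, -0.16 to 0.34), of which 164 in ground were in the cell with 49147 UMIs. Without the top cell of each library its ratio was 1.14. Without the ground cell with most UMIs the list median was -0.04, without the cycling subcluster 0.52, and without members carrying many UMIs of other cell types 0.36.

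Transcription factors and growth factor receptors mostly kept near the background. Of 14 measured dendritic cell transcription factor genes 5 were above 0, with a median of -0.12. Bcl11a, a factor of dendritic cell and lymphoid precursors, was higher in running (195 and 309 CPM, 0.66, 0.26 to 1.07) and Cebpb, a factor of monocyte and granulocyte development, lower (204 and 126 CPM, -0.70, -1.22 to -0.19). Irf8 (-0.11, -0.58 to 0.35), Spi1 (0.19, -0.11 to 0.49) and Zeb2 (-0.10, -0.37 to 0.18) had intervals that include 0. Among 11 measured receptor genes 5 were above 0, with a median of -0.22. Ifngr1, the interferon gamma receptor chain, was seen in 40 ground and 28 running members (306 and 196 CPM, -0.64, -1.06 to -0.23). The type I interferon receptor genes Ifnar1 (-0.22, -1.04 to 0.59) and Ifnar2 (0.20, -0.22 to 0.62) had intervals on both sides of 0.

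Chaperone genes were mostly lower in running members, and glycolysis genes leaned the same way within counting error. In the heat shock list 2 of 10 measured genes were above 0, with a median of -0.34. Hsph1 had 38 and 13 UMIs (-1.30, -2.34 to -0.36), Hsp90aa1 stood at 743 and 470 CPM (-0.66, -0.93 to -0.40) and Hsp90ab1 at 1312 and 957 CPM (-0.46, -0.64 to -0.27), whereas the stress-inducible Hspa1a (0.30, -0.17 to 0.76) and Hspa1b (0.33, -0.13 to 0.80) were not. In the glycolysis list 1 of 11 was above 0, with a median of -0.30, and the genes' lower and upper bounds had medians of -0.86 and 0.07. Without members carrying many UMIs of other cell types the direction turned, to a median of 0.03 with 6 genes above 0. Tpi1 (-0.98, -1.73 to -0.27) and Gpi1 (-0.63, -1.02 to -0.24) were lowest, and Hk2, a hexokinase gene, was the exception (0.68, 0.12 to 1.25). The same chaperone genes had medians of 0.0013 in class II-positive cells without Cd209a, 0.06 in classical monocytes and -0.27 in plasmacytoid dendritic cells. The lower chaperone level was thus not particular to members. The same glycolysis genes had medians of -0.03, -0.27 and -0.10 in these populations.

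**Figure D5:**
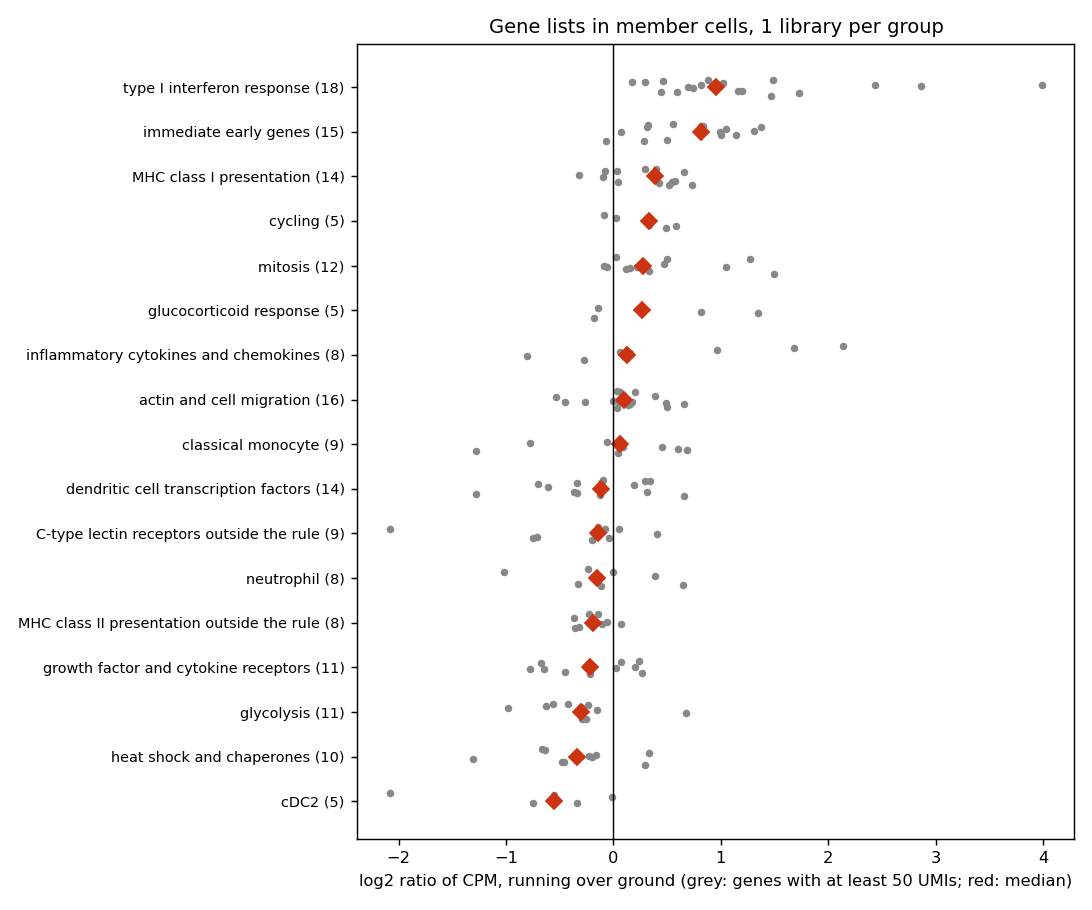
Log2 ratio of CPM, running over ground, in member cells (x axis) for 17 gene lists with at least 5 measured genes (y axis, number of genes in brackets); grey points are genes and red diamonds list medians. The interferon list lies highest, with a median of 0.95, and the cDC2 list lowest, with a median of -0.55.

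Division genes came from few cells. Mki67, a marker of dividing cells, was seen in 10 ground and 11 running members, with 169 and 180 UMIs. In the mitosis list 10 of 12 measured genes were above 0, with a median of 0.28, and Ccnb2 (1.5, 0.67 to 2.38), Tpx2 (1.27, 0.55 to 2.02) and Aurkb (1.05, 0.22 to 1.92) were highest. The cycling subcluster, with 4 ground and 7 running cells, held 327 of the 349 Mki67 UMIs. Lists of granulocyte precursor and erythroid genes had low ratios (Elane -3.72, Prtn3 -4.05, Hbb-bs -2.42), but 116 of 125 ground UMIs of Elane, 230 of 255 of Prtn3 and 205 of 272 of Hbb-bs were in single ground cells, so no direction is read from them.

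Over all genes with at least 100 UMIs that were seen in at least 20 members, with no cell holding over 25% of a library's UMIs of the gene, the 12 highest in running were Hpgd, Atf3, Cdkn1a, Samd9l, Fos, Rgs1, Irf7, Klf6, Rnase6, Hp1bp3, Klf2 and Bst2. Hpgd, the enzyme that inactivates prostaglandins, had 29 UMIs in 16 ground and 98 in 27 running members (2.0, 1.39 to 2.65). Samd9l, an antiviral gene that interferon induces, stood at 136 and 342 CPM (1.33, 0.89 to 1.78). The 12 lowest were Naaa, Adgre5, Asah1, Neurl3, Gngt2, Eif4b, St13, Bola2, Tmem14c, Tgfbi, Tmem256 and Mdh2. Naaa and Asah1, both lysosomal amidases of the same family, stood at 174 and 70.3 CPM (-1.31, -1.98 to -0.67) and at 176 and 87.9 CPM (-1.0, -1.62 to -0.42). Adgre5, encoding the adhesion receptor CD97, was seen in 32 ground and 18 running members (-1.19, -1.81 to -0.60).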

How the data were processed

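Both deposited matrices hold raw UMI counts per gene and barcode. Their headers name Cell Ranger 5.0.0, and the submitters' processing notes name STAR and the build mm10. Barcodes with at least 500 UMIs, 250 genes and at most 10% mitochondrial UMIs were kept. The members, gene lists, comparator rules and alternatives were chosen with earlier results of these data known. Counts were summed over cells of a library and given as CPM. Log2 ratios carry exact conditional binomial intervals, shares Clopper-Pearson intervals and ratios of shares log-normal intervals, all at 95%. T cells (at least 2 UMIs of Cd3d, Cd3e and Cd3g together) and neutrophils (at least 50 of S100a8 and S100a9) served as background. Members were clustered with scanpy 1.11.5 (2000 variable genes, 20 principal components, 15 neighbours, Leiden resolution 0.6), and doublets were called with Scrublet but not removed. For detection at equal depth cells were thinned to 3000 UMIs. Named genes are the given markers, from each list 2 to 4 genes of 50 UMIs or more whose ratios lay farthest from 0, identity genes by role, the 12 highest and 12 lowest ratios, and the 10 leading genes of each subcluster. The ranking skipped rule genes, mitochondrial, ribosomal, haemoglobin, antigen receptor, unnamed, granule and sex-linked marker genes. Mx1, Mx2 and Clec7a, which are on the lists, were not analysed here, and some list genes are not reported here. No sequence is printed.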

Additional observations from a re-analysis of the deposited data

Results flagged for a closer look

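Genes are given here whose log2 ratio (running over ground) in members and in another population of the same libraries lay on opposite sides of 0, with neither counting interval including 0. Whether the ratios differ was not tested. The genes looked at were list genes with at least 50 UMIs in members, without the rule genes. Ranked genes were looked at only where they are also on a list. Against plasmacytoid dendritic cells, division genes made up much of the set. Members had 0.33 for Mki67, 0.58 for Stmn1, 0.49 for Tubb5, 0.47 for Ube2c, 1.05 for Aurkb, 1.5 for Ccnb2 and 1.27 for Tpx2, while plasmacytoid dendritic cells had -1.02, -0.66, -0.52, -0.75, -1.01, -0.64 and -0.99. The values of members rest on the cycling subcluster of 4 ground and 7 running cells. Without it Aurkb was at -0.27, Stmn1 at -0.97, Tubb5 at -0.0025 and Mki67 at 0.051. The opposite direction was thus lost for Aurkb, Stmn1 and Tubb5, while Tpx2 was at 3.31 and Ube2c at 2.22. Levels outside this subcluster were low, with Ube2c at 29.9 CPM against 673 CPM within it. A running cell left in subcluster 2 had 0.470% of its UMIs in mitosis genes. No direction is read from these 2 ratios. The AP-1 genes Fosb and Junb stood at 1.0 and 0.50 in members and at -1.06 and -0.71 in plasmacytoid dendritic cells. Clec10a (-0.75 in members, 0.40 in plasmacytoid dendritic cells), Ctss (-0.36 and 0.16) and Cd74 (-0.057 and 0.57) were lower in running members and higher in running plasmacytoid dendritic cells. Cd74 was also higher in classical monocytes (0.48), which were chosen by a class II sum below 5. Bcl11a (0.66 and -0.11), Itgb7 (0.38 and -0.41), Vim (0.49 and -0.23) and Actg1 (0.20 and -0.36) were higher in running members and lower in running plasmacytoid dendritic cells, and Actg1 was at -0.12 in classical monocytes. Hsp90ab1 was at -0.46 in members and 0.19 in classical monocytes. The neutrophil genes S100a9 (0.39) and Retnlg (0.65) were above 0 in members and at -0.36 and -0.13 in classical monocytes and -0.37 and -0.40 in plasmacytoid dendritic cells; 824 of 2085 running S100a9 UMIs and 242 of 358 running Retnlg UMIs of members were in 1 cell.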

How the results depend on the processing

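No paired analysis was possible because each group has 1 library. With 43 and 44 cells, depth limits genes below about 50 UMIs. The alternatives that leave out single cells, cells with other types' UMIs or the cycling subcluster, that weight subclusters equally, or that cluster without interferon genes were chosen after seeing the data. Among alternative values of list medians and shares, 408 stayed within the counting interval (for a list, the medians of its genes' bounds), 17 left it, and 1 changed the sign of a median whose interval excluded 0. Many intervals include 0: 11 of 24 list medians had the opposite sign under at least 1 alternative. Among values of single genes 2939 stayed within the interval, 153 left it and 24 turned from an interval that excluded 0. With the rule applied after thinning to 2000 UMIs, the medians were 0.75 for classical monocyte, 1.64 for plasmacytoid dendritic cell, 1.10 for cycling, 0.64 for lipid uptake and 1.23 for mitosis genes, and Apoe was at 1.35, Btg2 at -0.032 and Cxcl2 at 2.95. With CPM averaged over cells, the progenitor median was -1.85, Fabp5 0.20 and Retnlg -0.11. Without the top cell of each gene, the progenitor median was -0.65 and Nfkbiz -0.15. With other UMI minima, the pattern recognition median was 0.33 (20 UMIs), that of C-type lectins -0.75 and that of glucocorticoid genes 0.82 (200 UMIs). With at least 2 Cd209a UMIs, Apoe was at 0.49 and S100a9 at -0.070. Without the cycling subcluster, the medians were 0.52 for classical monocyte and -0.0025 for cycling genes, and Aurkb was at -0.27, Retnlg at -1.03, Stmn1 at -0.97 and Tubb5 at -0.0025. Without members carrying other types' UMIs (5 ground and 6 running cells), the medians were 0.36 for classical monocyte and 0.82 for cycling genes, and Btg2 was at -0.0033, Elane at 0.089, Gapdh at 0.064, Hba-a1 at 0.46, Hbb-bs at 0.049, Retnlg at -0.31 and S100a9 at -0.33. Nfkbiz was at -0.25 without the running cell richest in interferon UMIs, and S100a8 at 0.40 without the ground cell with most UMIs. With equal subcluster weights, Cd74 was at 0.11, Retnlg at -0.50 and S100a9 at -0.19. At 3000 UMIs per cell, the ratio of shares with a UMI was 3.50 for Itgax (0.690 unthinned), 0.636 for Ciita (0.831), 0.444 for Csf1r (0.788) and 12 for Isg15 (2.93). The interferon median lay between 0.60 and 1.15 and the immediate early median between 0.52 and 0.85 over 17 alternatives each. Apart from the settings named, the cause was not tested.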

Other observations

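Inflammatory chemokines of members were uneven. Ccl3 and Ccl4 were higher in running, with 14 UMIs in 6 ground and 52 in 17 running members for Ccl3 (log2 ratio 2.14, 1.26 to 3.10) and 45 in 8 and 122 in 13 for Ccl4 (1.68, 1.18 to 2.21). Cxcl2, a neutrophil attractant, was seen in 5 members of each library and had a ratio of -0.81 (-1.51 to -0.13). Over the 8 measured genes of the list 6 were above 0, with a median of 0.13. Nfkbiz had a ratio of 0.97 (0.18 to 1.78), but 22 of its 38 running UMIs were in 1 cell.

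Lipid genes gave few measured members. Srebf2, the factor that controls cholesterol synthesis, had 27 UMIs in ground and 43 in running (0.91, 0.19 to 1.66). The fatty acid carrier gene Fabp5 had 42 and 10 UMIs (-1.83, -2.99 to -0.81), with 23 of the ground UMIs in 1 cell. In the actin and migration list 12 of 16 genes were above 0, with a median of 0.10. Tmsb10, which binds actin monomers, was the highest (2989 and 4726 CPM, 0.66, 0.56 to 0.76), and the integrin gene Itgam the lowest (204 and 141 CPM, -0.54, -1.04 to -0.04). Cdkn1a, a cell cycle inhibitor gene on the glucocorticoid list, stood at 72.2 and 183 CPM (1.34, 0.74 to 1.98), while Tsc22d3, a defining glucocorticoid target, had a ratio of -0.18 (-0.80 to 0.43).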
